A study of Arabidopsis thaliana with 24 samples.

Results

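The 10 genes described here act in the metabolism of tryptophan-derived indole compounds in Arabidopsis thaliana, or encode the glutathione S-transferases GSTF6 and GSTF7. They were named by gene identifier in a table of 33026 genes, and all 10 were found. The group was selected on measured values of this experiment, namely the large shade falls of CYP71A12, GSTF6 and GSTF7 in primed wild-type (WT) seedlings, and the remaining genes are their neighbours in the pathway. Members' values in any comparison that uses primed WT libraries are therefore given as a description, without a test.

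The study measured RNA in whole seedlings to ask how an earlier spell of shade changes the response to a later one. Seedlings 4 days old received either 8 h of white light (naive) or 8 h of shade (primed), then 40 h of recovery in white light. They were collected either without further shade or after 1 h of triggering shade, given as light with a lowered ratio of red to far-red (about 0.5). WT was the accession Col-0. The pif7-1 line carries a mutant allele of PIF7, a transcription factor that promotes growth in shade, and ref6-1 a mutant allele of REF6, a demethylase of lysine 27 on histone H3. The 3 genotypes, 2 light histories and 2 final conditions made 12 groups of 2 libraries each, 24 in all. The labels do not say whether the replicates came from separate batches of seedlings, so p-values measure only the spread between these libraries, which may be technical. Each mutant was represented by a single allele. Because whole seedlings were pooled, a level that was low through fewer cells of a type and one that was low through less RNA per cell cannot be told apart.

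Plants of the cabbage family turn tryptophan into several groups of defence compounds. The cytochrome P450 enzymes CYP79B2 and CYP79B3 convert tryptophan to indole-3-acetaldoxime, the shared entry point to indole glucosinolates, to the phytoalexin camalexin and to a set of indole carbonyl nitriles. CYP71A12 and CYP71A13 dehydrate the oxime to indole-3-acetonitrile. On the camalexin side, a glutathione conjugate of the product is trimmed by the gamma-glutamyl peptidase GGP1, and CYP71B15 (PAD3) closes the camalexin ring. The flavin-dependent oxidase FOX1 and CYP82C2 act on the branch that leads to 4-hydroxyindole-3-carbonyl nitrile. GSTF6 and GSTF7 are phi-class glutathione S-transferases known to be induced by pathogens and salicylic acid, and GSTF6 has been placed at the glutathione conjugation step of camalexin synthesis. Camalexin synthesis is typically low in unchallenged tissue and switched on by infection or stress.

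In the RefSeq annotation of the assembly TAIR10.1 all 10 are protein-coding genes. GSTF6 (AT1G02930, chr1:661088-662475) and GSTF7 (AT1G02920, chr1:658578-659980) are neighbours on the minus strand with 1107 bases between them. Their coding sequences are 94.3% identical, with identical runs of up to 116 bases in the transcripts. CYP71A12 (AT2G30750, chr2:13099486-13101371) and CYP71A13 (AT2G30770, chr2:13109909-13111988), also on the minus strand, lie 8537 bases apart and are 90.4% identical in coding sequence, with identical runs of up to 59 bases. CYP71A13 also overlaps the annotated gene AT2G30766. Reads from such stretches may be split between copies or lost, so the levels within each of these pairs are uncertain. The entry enzymes CYP79B2 (AT4G39950, chr4:18525042-18527602) and CYP79B3 (AT2G22330, chr2:9488413-9491404) are 77.9% identical. CYP71B15 (AT3G26830, chr3:9887917-9889791), FOX1 (AT1G26380, chr1:9126737-9128568), CYP82C2 (AT4G31970, chr4:15462350-15464563) and GGP1 (AT4G30530, chr4:14920376-14922519) overlap no other annotated gene.

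The 300 bases before the annotated start of FOX1, CYP82C2 and GSTF7 are shown because they carry repeated W-boxes, the motif bound by WRKY transcription factors. They are written 5′ to 3′ on the gene's own strand, from RefSeq TAIR10.1. Capitals mark TTGACC or TTGACT, which on the opposite strand read GGTCAA or AGTCAA. The windows are chr1:9128569-9128868 (minus strand) for FOX1, chr4:15462050-15462349 (plus strand) for CYP82C2 and chr1:659981-660280 (minus strand) for GSTF7.
FOX1: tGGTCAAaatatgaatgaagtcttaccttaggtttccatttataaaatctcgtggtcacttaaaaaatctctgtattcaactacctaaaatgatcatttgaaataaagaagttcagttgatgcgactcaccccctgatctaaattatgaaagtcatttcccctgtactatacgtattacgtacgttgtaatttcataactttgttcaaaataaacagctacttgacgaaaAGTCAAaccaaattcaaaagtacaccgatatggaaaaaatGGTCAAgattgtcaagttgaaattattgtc
CYP82C2: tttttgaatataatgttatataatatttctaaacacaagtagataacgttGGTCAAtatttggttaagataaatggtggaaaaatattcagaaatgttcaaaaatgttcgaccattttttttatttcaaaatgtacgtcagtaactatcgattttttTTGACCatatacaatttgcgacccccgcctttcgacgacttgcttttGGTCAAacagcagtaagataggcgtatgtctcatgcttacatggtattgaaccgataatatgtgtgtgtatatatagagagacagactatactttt
GSTF7: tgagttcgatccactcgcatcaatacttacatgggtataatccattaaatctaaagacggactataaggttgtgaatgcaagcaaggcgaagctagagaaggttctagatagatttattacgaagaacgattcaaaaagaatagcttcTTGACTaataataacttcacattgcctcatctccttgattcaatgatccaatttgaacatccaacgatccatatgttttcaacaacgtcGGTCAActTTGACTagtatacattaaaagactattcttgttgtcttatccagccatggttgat

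Windows of 9 of the 10 genes were searched. FOX1, CYP82C2 and GSTF7 had 3 W-boxes each, GGP1 had 1, and the other 5 genes searched had none. Those 5 were CYP79B2, CYP79B3, CYP71A12, CYP71A13 and CYP71B15. Of them CYP71A12, CYP71A13 and CYP71B15 varied with FOX1, CYP82C2 and GSTF7 from library to library, as described below. Among 27442 promoter windows of the same length, 32.3% held at least 1 such match and 7.9% held at least 2. The 9 genes gave 4 and 3, respectively. In GSTF7 the 2 matches nearest the start began 63 and 55 bases before it, and in FOX1 the nearest began 30 bases before it. Of the other motifs searched on both strands, TGACG, the core of the as-1 element bound by TGA factors, stood in FOX1, CYP82C2 and CYP71A13 and in 21.3% of all windows. CACGTG, the G-box bound by PIF and other basic helix-loop-helix factors, stood in none of the 9 and in 7.08% of all windows, and CACATG only in CYP71A12 among the 9 and in 13.1% of all windows. GCCGCC stood in none of the 9 and in 2.26% of all windows. A match is a run of letters in the reference and says nothing here about binding.

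The windows of the oxime-dehydrating pair are shown because these neighbours share their sequence close to the start. They are chr2:13101372-13101671 for CYP71A12 and chr2:13111989-13112288 for CYP71A13, both on the minus strand.
CYP71A12: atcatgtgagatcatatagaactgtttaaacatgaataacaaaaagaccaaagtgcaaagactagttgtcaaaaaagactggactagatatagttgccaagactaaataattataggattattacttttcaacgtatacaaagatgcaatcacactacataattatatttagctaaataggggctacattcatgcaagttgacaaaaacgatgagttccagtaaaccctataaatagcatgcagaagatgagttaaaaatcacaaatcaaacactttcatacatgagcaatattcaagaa
CYP71A13: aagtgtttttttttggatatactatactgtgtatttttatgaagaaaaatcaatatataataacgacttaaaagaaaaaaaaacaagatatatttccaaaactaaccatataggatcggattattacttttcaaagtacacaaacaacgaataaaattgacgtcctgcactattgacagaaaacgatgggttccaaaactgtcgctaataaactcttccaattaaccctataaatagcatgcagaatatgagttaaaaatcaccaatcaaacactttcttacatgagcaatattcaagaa

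Of the last 100 bases before the start, 85 were identical between CYP71A12 and CYP71A13. The longest shared run, aaccctataaatagcatgcagaa, has 23 bases and begins 77 bases before the start in both genes.

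The entry enzymes' windows are shown because both genes changed alike in naive WT shade. They are chr4:18524742-18525041 for CYP79B2 and chr2:9488113-9488412 for CYP79B3, both on the plus strand.
CYP79B2: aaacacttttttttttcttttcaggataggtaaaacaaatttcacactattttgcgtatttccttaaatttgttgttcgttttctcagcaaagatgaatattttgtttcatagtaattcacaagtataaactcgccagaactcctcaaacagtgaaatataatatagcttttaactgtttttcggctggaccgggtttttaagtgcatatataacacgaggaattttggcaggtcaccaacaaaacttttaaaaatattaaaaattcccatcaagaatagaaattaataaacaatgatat
CYP79B3: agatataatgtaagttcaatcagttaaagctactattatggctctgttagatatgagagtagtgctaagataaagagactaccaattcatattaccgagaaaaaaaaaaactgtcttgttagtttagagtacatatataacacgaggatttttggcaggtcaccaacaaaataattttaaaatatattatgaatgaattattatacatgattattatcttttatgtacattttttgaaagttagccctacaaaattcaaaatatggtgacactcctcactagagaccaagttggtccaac

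These windows shared the 22-base run ttttggcaggtcaccaacaaaa, which begins 77 bases before the start in CYP79B2 and 151 bases before it in CYP79B3. Neither held any of the motifs searched.

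The libraries each detected between 18614 and 20007 genes at 1 TPM or more, where TPM is a transcript level scaled by gene length and library total. TPM values carry no read counts, so the depth behind a value is unknown and no counting interval can be given. PIF7 was at 1.09 to 3.03 TPM in the 8 pif7-1 libraries and at 19.18 TPM or more in all others. REF6 transcript levels overlapped between ref6-1 and the other libraries and did not check that label. ATXR7, a histone methyltransferase gene, was at 0.02 TPM or less in the 4 libraries labelled naive ref6-1 and at 7.20 to 8.60 TPM in the 4 primed ref6-1 libraries, so these sets differ in more than light history. The naive mutant libraries also stand apart in the order of deposit, and a level difference between naive and primed mutants cannot be told apart from that difference. For this reason the mutants are compared below by their shade responses and within the primed libraries, and the text writes "labelled naive ref6-1" throughout. Comparisons of naive mutants with naive WT still cross the order of deposit, differences of shade responses included. Summed transcripts of mitochondrial genes ranged from 58.9 to 559 TPM, with the highest value in naive shaded WT. The leaf markers LHCB1.3, RBCS1A, GAPA, RCA and CER1 were each at 1 TPM or more in every library. The 5 seed markers summed to 16.7 to 188 TPM and were highest in primed ref6-1 in white light, and the 6 root markers summed to 17.0 to 89.6 TPM.

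The 10 genes fell into 2 sets by level. CYP79B2, CYP79B3 and GGP1 were present in all 24 libraries, at 4.29 to 39.19 TPM for CYP79B2, 9.02 to 53.89 TPM for CYP79B3 and 29.29 to 120.92 TPM for GGP1. The other 7, called the 7 variable genes below, were low in most libraries and high in a few. GSTF7 ran from 0.56 to 326.27 TPM with a median of 10.5 TPM, and GSTF6 from 1.67 to 254.42 TPM with a median of 7.83 TPM. CYP71A12 had a median of 0.285 TPM and reached 73.69 TPM, standing at 10 TPM or more in 7 libraries. FOX1 had a median of 0.135 TPM and reached 24.64 TPM. CYP71B15 stayed between 0.17 and 9.11 TPM. CYP71A13 never passed 3.29 TPM, and CYP82C2 was listed at 0 in 15 libraries and reached 5.18 TPM. Primed shaded pif7-1 replicate 1 held the highest value of all 7 of these genes. All 10 genes passed the filter of 1 TPM in at least 2 libraries and were tested among 21473 genes, but CYP71A12, CYP71A13, FOX1 and CYP82C2 passed it only through the libraries in which they were high. For CYP71A12, FOX1 and CYP82C2 those libraries include both of primed WT in white light. For CYP71A13 only replicate 2 of that group passed, at 2.32 TPM. It also passed in primed pif7-1 replicate 1, at 1.23 TPM in white light and 3.29 TPM in shade. These pif7-1 libraries are themselves compared below, so the filter is not separate from those comparisons for CYP71A13.

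**Figure D1:**
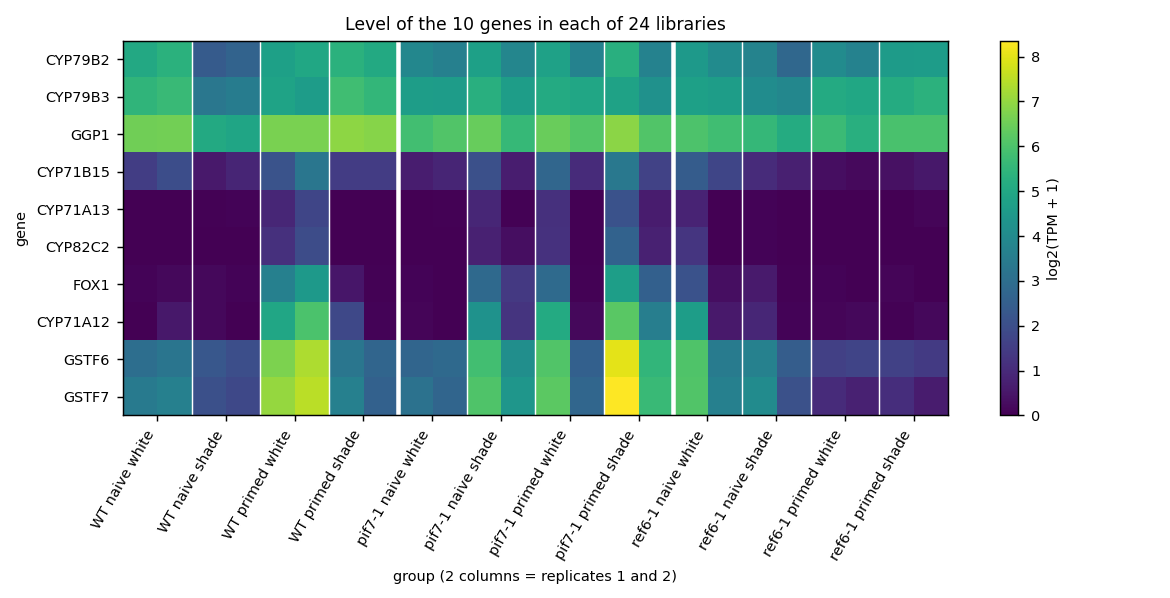
Levels of the 10 genes as log2(TPM + 1) in each of the 24 libraries, with genes in rows and libraries in columns by group. CYP79B2, CYP79B3 and GGP1 are present throughout, while the other 7 genes are high in a few libraries, which differ between replicates in several pif7-1 and naive-labelled ref6-1 groups.

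In primed WT seedlings in white light, the reference for the shade falls on which the genes were selected, CYP71A12 was at 30.04 and 62.02 TPM, GSTF6 at 103.73 and 159.25 TPM, and GSTF7 at 129.93 and 179.83 TPM. Naive WT in white light had 0 and 0.44 TPM of CYP71A12, 7.16 and 8.49 TPM of GSTF6, and 9.63 and 11.36 TPM of GSTF7. Every primed library stood above every naive one for these genes, whose selection used the primed WT values, so nothing is read from that.

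Neighbouring steps also stood higher in primed WT white light. FOX1 was at 11.53 and 21.59 TPM against 0.06 and 0.14 TPM in naive white light. CYP82C2 was at 1.25 and 2.80 TPM where both naive WT libraries listed it at 0, and CYP71A13 at 0.85 and 2.32 TPM where both listed it at 0. CYP71B15, the last enzyme of camalexin synthesis, was at 3.37 and 8.76 TPM against 1.84 and 2.91 TPM. The entry enzymes and GGP1 stood differently. CYP79B3 was at 27.67 and 23.32 TPM against 43.08 and 49.45 TPM, and CYP79B2 was at 26.00 and 30.32 TPM against 32.12 and 38.97 TPM. GGP1 was at 101.99 and 101.34 TPM against 91.91 and 94.66 TPM. Across the 10 genes the median log2 difference of primed from naive was 1.43, and over all genes tested it was -0.14. In this comparison 7.53% of all genes passed the test, from which nothing is read about the 10.

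After 1 h of shade the same primed WT seedlings had little transcript of the oxime-dehydrating, FOX1 and GST genes. CYP71A12 was at 2.54 and 0.07 TPM, FOX1 at 0.41 and 0.03 TPM, and CYP82C2 was listed at 0 in both libraries. GSTF6 was at 8.77 and 5.61 TPM and GSTF7 at 11.41 and 5.03 TPM. These are close to the levels in naive WT white light. On the log2(TPM + 1) scale, which understates changes of low genes, the differences of shade from white light were -4.51 for CYP71A12, -4.15 for GSTF7, -4.01 for GSTF6 and -3.80 for FOX1. CYP79B3 went the other way, to 53.89 and 45.41 TPM, a log2 difference of 0.93 and the highest group mean of this gene, overlapping naive WT in white light. CYP79B2 at 39.19 and 32.89 TPM and GGP1 at 120.92 and 114.43 TPM were likewise at their highest group means. The median over the 10 genes was -1.42 and over all genes 0.02, and 23.4% of all genes passed the test in this comparison, from which nothing is read about the 10.

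**Figure D2:**
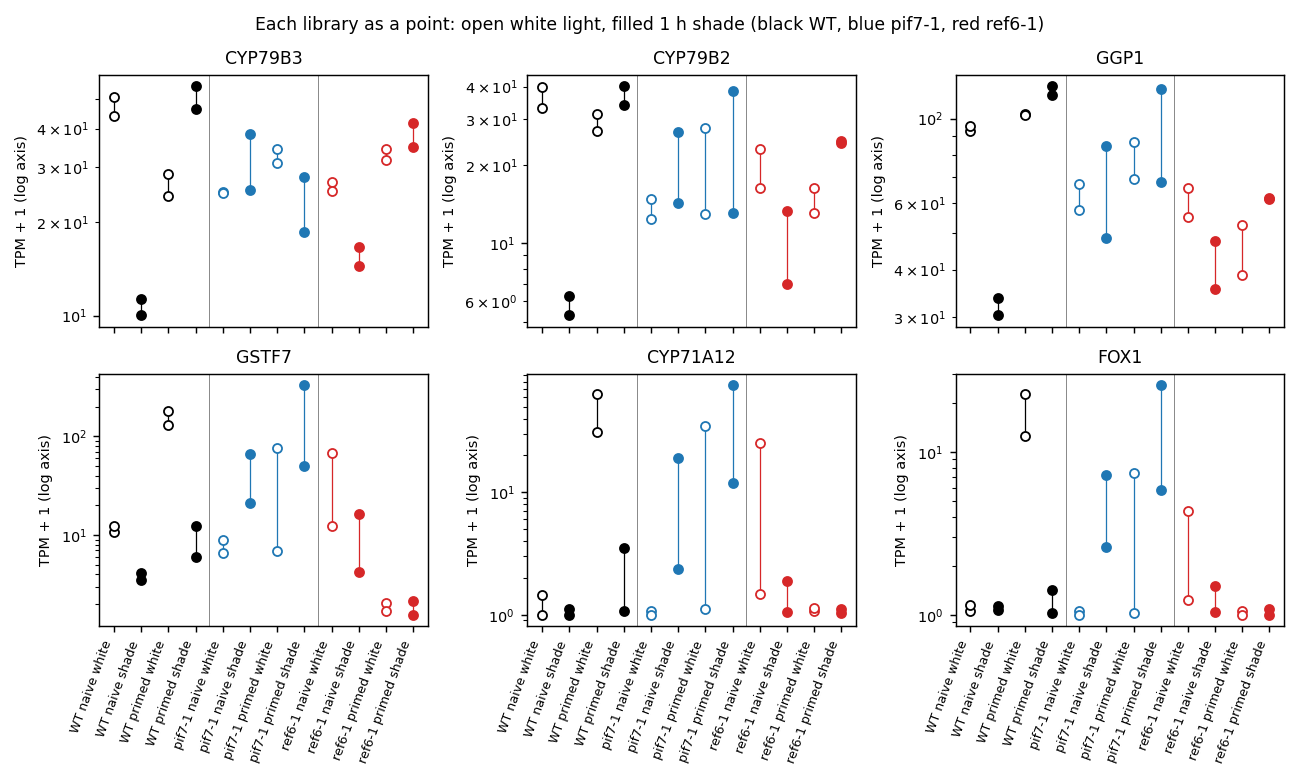
TPM + 1 on log axes for CYP79B3, CYP79B2, GGP1, GSTF7, CYP71A12 and FOX1, with 1 point per library, open in white light and filled after 1 h of shade, and a line joining the 2 replicates of each group. Primed WT in white light stands above naive WT for CYP71A12, FOX1 and GSTF7, and the replicates of several pif7-1 groups lie far apart.

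In naive WT, 1 h of shade lowered the entry enzymes CYP79B2 and CYP79B3 and the peptidase gene GGP1. CYP79B3 fell from 43.08 and 49.45 TPM in white light to 9.02 and 10.32 TPM in shade, a log2 change of -2.15 (SE 0.19, limma adjusted p = 1.43e-06). CYP79B2 fell from 32.12 and 38.97 TPM to 4.29 and 5.30 TPM, a log2 change of -2.66 (SE 0.44, adjusted p = 0.00034). GGP1 fell from 91.91 and 94.66 TPM to 32.68 and 29.29 TPM, a log2 change of -1.56 (SE 0.25, adjusted p = 0.000289). The white-light and shaded libraries did not overlap for these 3 genes. With 2 libraries a side that can arise without an effect, and the share of all genes without overlap is not given. These genes were 3 of 10 called, all lower, where 23.1% of all genes were called lower in this comparison and 35.6% in either direction. Leaving out any of these libraries in turn, or adding mitochondrial transcripts as a covariate, gave the same count, and a fit of these 4 libraries alone gave 5, with GSTF6 and GSTF7 added.

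The other 7 genes were not called in naive WT shade. CYP71B15 had 1.84 and 2.91 TPM in white light and 0.47 and 0.82 TPM in shade (adjusted p = 0.178). GSTF6 had 7.16 and 8.49 TPM against 3.80 and 3.05 TPM, and GSTF7 had 9.63 and 11.36 TPM against 3.12 and 2.51 TPM. CYP71A12, CYP71A13, FOX1 and CYP82C2 were at 0.44 TPM or less in all 4 libraries, too low for a change to be seen. Summed root markers, 6 genes, were at 65.03 and 65.42 TPM in naive white light and at 18.21 and 22.56 TPM in naive shade, and all 6 were called lower. No root marker was at 0 in every library. Other markers were called too: the shoot markers RBCS1A, RCA, GAPA and CER1 lower, the shoot marker LHCB1.3 higher and the seed marker EM6 higher. The part of the root, shoot and seed markers in the changes of CYP79B2, CYP79B3 and GGP1 was not tested.

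In pif7-1 no member was called for shade in either history. In naive pif7-1 all 10 had positive log2 differences, with a median of 0.56 against -0.08 over all genes, and 0 of 10 were called where 7.38% of all genes were. At an unadjusted p under 0.05 there were 3, but the share of all genes at that threshold is not given, so nothing is read from this count. FOX1 had the lowest adjusted p, 0.131, with 6.22 and 1.60 TPM in shade against 0.06 and 0 TPM in white light. GSTF7 was at 64.87 and 20.06 TPM in shade against 7.89 and 5.55 TPM, and GSTF6 at 55.16 and 16.64 TPM against 5.62 and 6.22 TPM. For these 3 genes both shaded libraries stood above both white-light libraries, but the shaded replicates lay far apart. The share of all genes that separated so is not given. CYP79B2 and CYP79B3, which fell in naive WT shade, were at 25.81 and 13.29 TPM and at 37.55 and 24.39 TPM in shade. Their white-light levels were 13.75 and 11.35 TPM and 23.98 and 23.79 TPM.

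In primed pif7-1, 9 of 10 differences were positive, with a median of 0.95 against -0.12 over all genes, and 0 of 10 were called where 5.01% of all genes were. At an unadjusted p under 0.05 there were 5, again without the share of all genes at that threshold, so nothing is read from this count. GSTF7 was at 326.27 and 49.21 TPM in shade and 75.53 and 5.83 TPM in white light, so the groups overlapped. CYP71A12 was at 73.69 and 10.90 TPM in shade and 33.75 and 0.12 TPM in white light. FOX1 was at 24.64 and 4.86 TPM against 6.38 and 0.03 TPM (adjusted p = 0.121). Leaving out the primed shaded pif7-1 replicate 2 gave 5 calls (CYP71A13, FOX1, CYP82C2, GSTF6 and GSTF7), and leaving out the white-light replicate 1 gave 1 (FOX1).

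In the libraries labelled naive ref6-1 all 10 genes had negative differences of shade from white light, with a median log2 difference of -0.95 against 0.002 over all genes. CYP79B3 alone was called, at 25.93 and 24.21 TPM in white light and 15.68 and 13.50 TPM in shade, a log2 change of -0.74 (SE 0.19, adjusted p = 0.0163). That is 1 of 10 lower, where 8.43% of all genes were called lower and 17.4% in either direction. The call was lost without either white-light replicate, without shaded replicate 2, in a fit of these 4 libraries alone, and with mitochondrial transcripts as a covariate. Mitochondrial genes summed to 61.72 and 58.90 TPM in white light and 406.70 and 157.81 TPM in shade in these libraries. Summed root markers were at 77.81 to 89.60 TPM in white light and 20.19 to 35.57 TPM in shade, and all 6 were called lower. The shoot markers RCA and CER1 were also called lower, and the seed markers EM6 and OLEO2 higher. The part of mitochondrial transcripts and of these markers in the CYP79B3 change was not tested beyond that covariate. In primed ref6-1, 0 of 10 were called in shade, where 12.7% of all genes were, and 0 passed an unadjusted p under 0.05. The median log2 difference there was 0.04. The test used 1 spread per gene over all 12 groups. Median replicate differences of the 10 genes were 0.10 and 0.12 in primed ref6-1 in white light and shade, against 1.46 and 1.77 in primed pif7-1. The absence of calls therefore does not show that there was no response. CYP79B2 was at 15.31 and 12.05 TPM in white light and 23.22 and 23.81 TPM in shade. CYP79B3 was at 33.30 and 30.75 TPM and at 33.87 and 40.64 TPM. GSTF6 was at 1.67 to 2.28 TPM and GSTF7 at 0.56 to 1.15 TPM in the 4 primed ref6-1 libraries, which were the lowest levels of both genes.

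**Figure D3:**
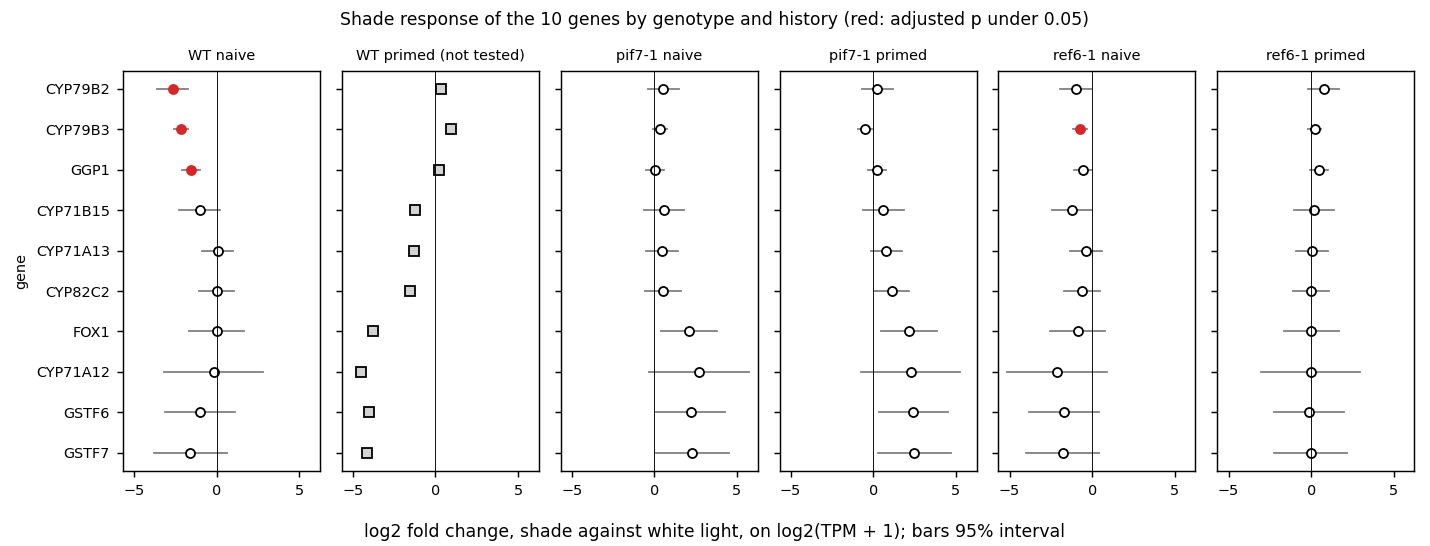
Log2 differences of shade from white light for the 10 genes in each genotype and light history, on the log2(TPM + 1) scale, with bars for the 95% interval of the limma fit and red points for an adjusted p under 0.05. In naive WT CYP79B2, CYP79B3 and GGP1 fell, in pif7-1 most differences are positive and none was called, and the primed WT values are shown as squares without a test.

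The response of CYP79B2, CYP79B3 and GGP1 to naive shade differed between pif7-1 and WT. The difference of the responses, pif7-1 minus WT, was 2.48 on the log2 scale for CYP79B3 (SE 0.27, limma adjusted p = 4.05e-05). For CYP79B2 it was 3.19 (SE 0.63, adjusted p = 0.00379), and for GGP1 it was 1.61 (SE 0.36, adjusted p = 0.00877). All 10 differences were positive, with a median of 2.27 against 0.03 over all genes, and these 3 were called, where 6.49% of all genes were called higher and 12.9% in either direction. The call for GGP1 was lost without naive shaded pif7-1 replicate 1, in which GGP1 was at 83.72 TPM against 47.57 TPM in replicate 2. This difference is made from the same libraries as the naive responses above. It sets libraries against each other that stand apart in the order of deposit, and genotype cannot be told apart from that. White-light levels stood apart too, with CYP79B2 at 13.75 and 11.35 TPM in naive pif7-1 and 32.12 and 38.97 TPM in naive WT. CYP79B3 was at 23.98 and 23.79 TPM against 43.08 and 49.45 TPM. The part of these starting levels was not tested. In the same difference 4 of 5 shoot markers and 2 of 6 root markers were called higher and 1 of 4 seed markers tested was called lower. Summed root markers were at 31.15 to 45.15 TPM in naive white-light pif7-1 and 17.11 to 22.51 TPM in shade. Summed shoot markers were at 45658 to 48375 TPM in naive white-light pif7-1 and 51815 to 58277 TPM in shade, and in naive WT at 42103 to 51140 TPM and 42512 to 42968 TPM. The part of these markers was not tested.

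Between the libraries labelled naive ref6-1 and WT, CYP79B3 alone differed in its naive shade response, by 1.40 (SE 0.27, adjusted p = 0.0149). That is 1 of 10 called higher, where 1.31% of all genes were called higher and 2.13% in either direction. CYP79B2 was at 22.09 and 15.31 TPM in white light and 12.36 and 5.98 TPM in shade on the ref6-1 side and was not called. The 2 sides also differ in ATXR7 and in the order of deposit, and genotype cannot be told apart from these. The CYP79B3 call was lost in a fit of these 8 libraries alone and without any of 4 single libraries, namely WT white-light replicate 2, WT shaded replicate 1, labelled ref6-1 white-light replicate 2 and shaded replicate 1. Within ref6-1 the primed minus naive difference of response was 0.95 for CYP79B3 (SE 0.27, adjusted p = 0.0209). This was the only one of 10 called, where 14.4% of all genes were called higher and 22.8% in either direction. The number of members called there ran from 0 to 3 as single libraries were left out, and was 0 without white-light naive replicate 1, shaded naive replicate 2, or replicate 2 of either primed group. This comparison also mixes libraries that differ in ATXR7. In it the shoot markers RCA, GAPA and CER1 were called higher and the seed markers EM6, OLEO1 and OLEO2 lower. The part of these markers was not tested. In pif7-1 the primed minus naive difference of response called 0 of 10, where 2.28% of all genes were called, and 1 passed an unadjusted p under 0.05.

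In primed seedlings after shade, ref6-1 stood far below pif7-1 for GSTF7, GSTF6 and FOX1. GSTF7 was at 1.15 and 0.56 TPM in ref6-1 against 326.27 and 49.21 TPM in pif7-1, a log2 difference of -6.13 (SE 1.04, limma adjusted p = 0.00139). GSTF6 was at 2.09 and 1.67 TPM against 254.42 and 44.11 TPM, a difference of -5.22 (SE 0.99, adjusted p = 0.00306). FOX1 was at 0.09 and 0 TPM against 24.64 and 4.86 TPM, a difference of -3.55 (SE 0.79, adjusted p = 0.00889). The ref6-1 and pif7-1 libraries did not overlap for any of these genes. With 2 libraries a side that can arise without an effect, and the share of all genes is not given. Set beside these libraries as a description, primed shaded WT had GSTF7 at 11.41 and 5.03 TPM and GSTF6 at 8.77 and 5.61 TPM. FOX1 was at 0.41 and 0.03 TPM there, so it was low in shaded WT as well as in ref6-1.

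CYP71A12 was at 0.04 and 0.12 TPM in primed shaded ref6-1 against 73.69 and 10.90 TPM in pif7-1 (adjusted p = 0.037). CYP71B15 was at 0.29 and 0.44 TPM against 9.11 and 2.13 TPM (adjusted p = 0.0298), and CYP82C2 was listed at 0 in both ref6-1 libraries against 5.18 and 0.72 TPM (adjusted p = 0.0383). Primed shaded WT, as a description, had CYP71A12 at 2.54 and 0.07 TPM and CYP71B15 at 1.77 and 1.82 TPM. CYP82C2 was listed at 0 in both of those WT libraries. CYP79B3 was higher in ref6-1, at 33.87 and 40.64 TPM against 26.86 and 17.58 TPM, a difference of 0.74 (SE 0.19, adjusted p = 0.0199). The calls for CYP71A12 and CYP82C2 were lost without the filter on low values and with mitochondrial transcripts as a covariate, and those for CYP71A12 and CYP71B15 with a pseudocount of 5. So 6 of 10 were called lower and 1 higher, where 4.3% of all genes were called lower, 8.23% higher and 12.5% in either direction. Much of the pif7-1 level came from 1 library: without primed shaded pif7-1 replicate 1 the number called was 3, without replicate 2 it was 8, and without either ref6-1 replicate it was 2. In a fit of these 4 libraries alone none was called. In the same comparison 3 of 5 shoot markers and 1 of 6 root markers were called higher in ref6-1 and none of 4 seed markers tested was called. Summed shoot markers were at 47132 to 48580 TPM in ref6-1 and 41188 to 43305 TPM in pif7-1, summed root markers at 42.13 to 46.96 TPM and 17.01 to 37.92 TPM, and their part was not tested.

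In primed white light GSTF7 alone was called between ref6-1 and pif7-1, at 1.05 and 0.72 TPM in ref6-1 against 75.53 and 5.83 TPM in pif7-1. The log2 difference was -3.61 (SE 1.04, adjusted p = 0.0438). That is 1 of 10 lower, where 6.75% of all genes were called lower and 8.21% in either direction. The call rested on single libraries: 0 were called without pif7-1 replicate 1 or either ref6-1 replicate, and 3 without pif7-1 replicate 2. It was also lost without the filter on low values, with a pseudocount of 5 and with quantile normalization. Of the seed markers 2 of 4 tested were called higher in ref6-1, with the list summing to 116.48 to 187.67 TPM against 39.80 to 51.46 TPM in pif7-1. Of 5 shoot markers 1 was called higher and 1 lower, no root marker was called, and the part of these markers was not tested. For the difference between the shade responses of primed ref6-1 and pif7-1, 0 of 10 were called, where 10.3% of all genes were called, and 1 passed an unadjusted p under 0.05. Set beside primed WT as a description, ref6-1 in white light differed by log2 -6.36 for GSTF7 and -5.32 for CYP71A12.

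Replicates of several of the 7 variable genes disagreed by more than those of most genes. The replicate standard deviation on the log2 scale was 1.61 for CYP71A12, above 99.5% of the genes tested, 1.19 for GSTF7, 1.13 for GSTF6 and 0.90 for FOX1. Over all genes tested the median was 0.172 and the 95th percentile 0.552. Among the other variable genes it was 0.64 for CYP71B15, 0.55 for CYP82C2 and 0.48 for CYP71A13. It was 0.21 for CYP79B3, 0.28 for GGP1 and 0.50 for CYP79B2. The 2 sets overlapped here, since CYP79B2 stood above CYP71A13 and above 94.1% of the genes tested.

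The disagreement sat in particular groups. In primed pif7-1 in white light 8 of 10 genes differed by more than 1 log2 unit between the replicates, where 2.45% of all genes did. In primed shaded pif7-1 it was again 8, where 5.27% of all genes did. It was 5 in naive shaded pif7-1, where 2.67% of all genes did, and 5 in labelled naive ref6-1 in white light, where 2.35% did. In that last group CYP71A12 was at 24.30 and 0.48 TPM and GSTF6 at 65.76 and 10.01 TPM. Replicate 1 was the higher library for both genes there and in the pif7-1 groups just named. In 5 of the 12 groups no member differed by that much, among them both primed ref6-1 groups.

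The 7 variable genes varied together from library to library. Over the 24 libraries the Pearson correlations of their 21 pairs ran from 0.836 to 0.990 and the Spearman correlations from 0.604 to 0.992, on log2(TPM + 1). The differences between replicates, which hold no effect of genotype or light, also went together, with r from 0.825 to 0.981 over the 12 groups. Among CYP79B2, CYP79B3 and GGP1 the 3 pairs had r from 0.725 to 0.908. Between the sets, r ran from -0.01 to 0.69 over 21 pairs. For the differences between replicates the sets were less distinct, with r from 0.428 to 0.903 between them and from 0.748 to 0.786 among CYP79B2, CYP79B3 and GGP1. The split was made by level after the values were seen, and it places GGP1, which acts in camalexin synthesis, with the entry enzymes. All values in a library share its preparation and depth, and these correlations are given as a description.

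**Figure D4:**
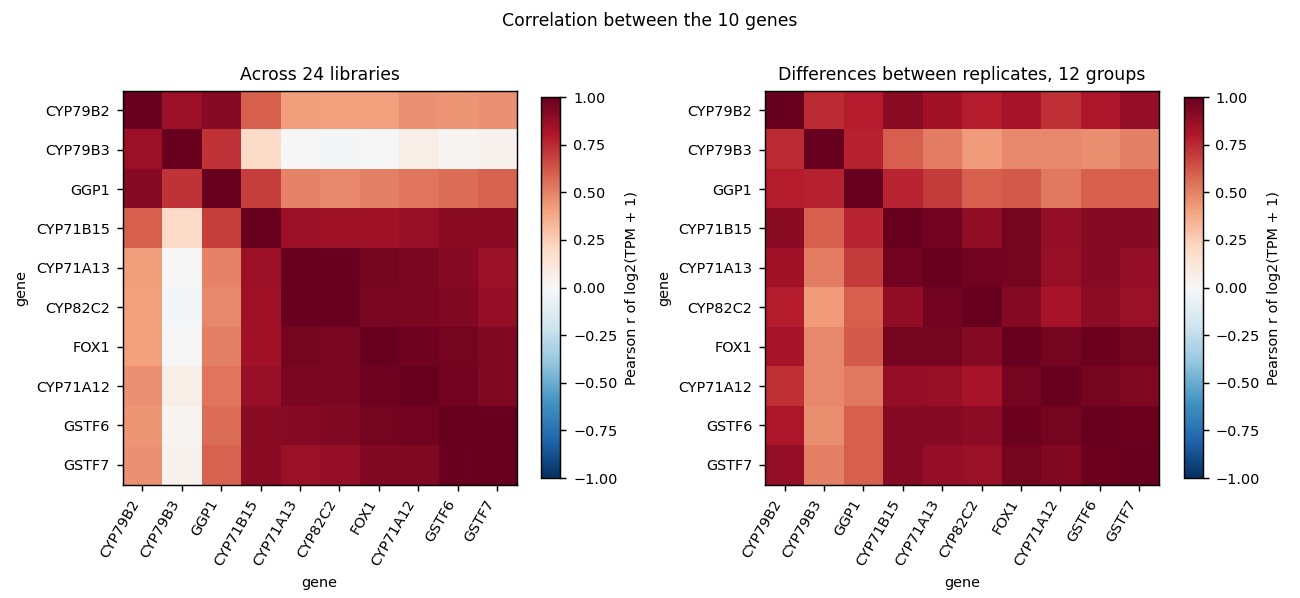
Pearson correlations between the 10 genes, from library levels on log2(TPM + 1) over 24 libraries and from replicate differences over 12 groups. The 7 variable genes have r of 0.836 or more with each other over libraries, where CYP79B2, CYP79B3 and GGP1 have r of 0.69 or less with them.

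Within the near-identical pairs the ratio was narrow only where the genes were high. GSTF7 was 1.01 to 1.31 times GSTF6 in TPM, with a median of 1.16, in the 10 libraries where GSTF6 reached 10 TPM. At lower levels the ratio was 0.316 to 0.550 in the 4 primed ref6-1 libraries, 0.821 and 0.823 in naive shaded WT, and 1.34 in both naive WT white-light libraries. CYP71A12 was 19.5 to 35.3 times CYP71A13, with a median of 26.7, in the 7 libraries where CYP71A13 reached 0.5 TPM. How the counting treated reads that match both copies is not given in the sources used here, and the part of that treatment in the ratios was not tested.

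The rest of the indole pathway was described with lists chosen with earlier results of these data known. In naive WT shade the indole glucosinolate genes fell with CYP79B2 and CYP79B3: 8 of 11 were called lower and none higher, where 23.1% of all genes were called lower, with a median log2 change of -1.26 against -0.10 over all genes. IGMT5, an indole glucosinolate methyltransferase, changed by -2.01 (SE 0.32), CYP83B1, which takes the oxime into glucosinolate synthesis, by -1.98 (SE 0.27), and the sulfotransferase SOT16 by -1.79 (SE 0.26). MYB34, an activator of indole glucosinolate genes, fell by 1.15 (SE 0.16), and it and MPK3 were the 2 of 7 regulators called. Of 9 breakdown and transport genes 6 fell, including the nitrilase NIT3 by 1.77, the myrosinase TGG1 by 1.66 and the transporter PEN3 by 1.66. Of 10 tryptophan synthesis genes 3 were called lower (PAT1, TSB2 and IGPS), a share near that of all genes, and their median was -0.27. Of the other phi-class GST genes 6 of 10 tested fell, led by GSTF14 with -2.14 and GSTF9 with -1.99. IGMT5, MPK3, PAT1 and IGPS each overlap another annotated gene, from which their reads may not be told apart, here and in later comparisons.

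In the difference of naive responses between pif7-1 and WT these lists had positive medians. Indole glucosinolate genes were called higher in 5 of 11, where 6.49% of all genes were, among them SOT16 with 1.99 (SE 0.37) and CYP83B1 with 1.88 (SE 0.38), and none was lower. MYB34 differed by 1.57 (SE 0.23), GSTF14 by 3.28 (SE 0.66) and GSTF9 by 2.06 (SE 0.38).

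In WT white light primed seedlings had more CYP81F2, an indole glucosinolate hydroxylase, by a log2 difference of 3.63 (SE 0.65), and more IGMT2, by 3.20 (SE 0.53). Of 7 regulators 3 were called higher and none lower, where 7.53% of all genes were called in either direction: NAC042 by 3.39 (SE 0.75), MYB51 by 0.97 (SE 0.27) and WRKY33 by 1.40 (SE 0.26). WRKY33 and NAC042 are known activators of camalexin genes, and both overlap another annotated gene, from which their reads may not be told apart. The FOX1 relatives FOX4 and FOX5 were higher by 2.10 and 1.88. After shade in primed WT these genes were lower, with log2 changes of -3.37 for CYP81F2, -3.04 for IGMT2, -3.34 for NAC042, -1.33 for WRKY33 and -1.96 for FOX4. SOT16 was higher there, by 0.96, as was the nitrilase NIT1, by 2.21. Both comparisons share the primed WT white-light libraries.

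WRKY33 transcript did not track CYP71A12 and FOX1 in every group. In primed WT white light it was at 26.42 and 31.02 TPM, and in primed WT shade at 10.48 and 11.12 TPM. In the libraries labelled naive ref6-1 it was at 16.10 and 10.99 TPM in white light and 40.79 and 27.62 TPM in shade, where CYP71A12 was at 0.87 and 0.05 TPM and FOX1 at 0.51 and 0.04 TPM. In primed shaded pif7-1, whose replicate 1 held the highest value of all 7 variable genes, WRKY33 was at 21.04 and 14.33 TPM. WRKY33 overlaps another annotated gene, and the libraries labelled naive ref6-1 also differ in ATXR7. The part of WRKY33 in the levels of the 10 genes was not tested.

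In primed shaded ref6-1 against pif7-1, CYP81F2 and IGMT2 were lower by log2 2.71 and 2.47, and NAC042 by 2.91. MYB51 was lower by 1.02, FOX4 by 1.69, FOX5 by 1.77 and GSTF3 by 1.65. Much of the pif7-1 level again came from replicate 1. CYP81F2 was at 20.83 and 5.58 TPM in primed shaded pif7-1, IGMT2 at 11.31 and 2.94 TPM and NAC042 at 20.91 and 5.77 TPM. FOX4 was at 4.26 and 1.04 TPM there and GSTF3 at 7.12 and 1.13 TPM. The myrosinase genes TGG1 and TGG2 were higher, by 1.00 and 1.53, and so was IGMT5, by 1.50. Tryptophan synthesis had none of 10 called in either direction.

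Genes whose group means followed the mean of the 10 most closely were ranked over the 12 groups by Pearson's r on log2(TPM + 1), as a description. AT1G53625 came first with r = 0.960, at 0 to 17.10 TPM, followed by MSRB8, a methionine sulfoxide reductase, with 0.959 at only 0 to 1.62 TPM. F6'H1, the enzyme that makes the precursor of the coumarin scopoletin, followed with 0.940 at 0.42 to 24.69 TPM, and JUB1, the RefSeq name of NAC042, with 0.933 at 0.09 to 24.01 TPM. The next were ERF071, an ethylene-responsive factor gene, and FOX2 with 0.929 each, then AT1G73810, AT1G26240 and AT5G25930 with 0.926 each and GLP1, a germin-like protein gene, with 0.924. ERF071 never passed 1.45 TPM and AT1G73810 never passed 2.91 TPM, so their r, like that of MSRB8, rests on low levels. The highest library of F6'H1 and FOX2 was primed shaded pif7-1 replicate 1, and that of AT1G53625 and NAC042 was primed WT white light replicate 2. Of the 10 genes themselves, CYP79B3 was least like the mean of the others, with r = 0.17, and CYP71A12 most like it, with 0.912.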

How the data were processed

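The deposited table gave TPM, a length- and library-scaled transcript level, for 33026 genes in 24 whole-seedling libraries. The submitters' processing notes name the build TAIR10 and the tools FastQC, cutadapt, STAR, HTSeq and DESeq2, without roles or versions, and the way the authors computed TPM is not given in the sources used here. Because TPM holds no read counts, counting error cannot be given. Strandedness is not given either, so overlapping genes may share reads.

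Values were analysed as log2(TPM + 1). The filter kept 21473 genes, those that reached 1 TPM in 2 or more libraries. limma 3.58.1 (R 4.3.3) fitted 12 group means to all 24 libraries with a mean-expression trend, leaving 12 residual degrees of freedom, so that groups of 2 share 1 estimate of the spread. Tests were two-sided, adjusted by Benjamini-Hochberg over all genes within each comparison, with a threshold of 0.05. Counts at an unadjusted p, and counts from alternative fits, are given without the share of all genes. They do not show an excess among the 10 genes. Of 20 comparisons, 12 use no primed WT library and were tested for the 10 genes, and 8 were described only. The fit was tested on simulated data.

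The genes, gene lists and comparisons were chosen with earlier results of these data known. All 10 genes are named; from each pathway list up to 4 genes past the threshold with the greatest absolute change are named per comparison, and the 10 genes with the highest correlation to the mean of the 10 are named as most alike. Alternatives were filters (none, or 5 TPM), pseudocounts of 0.1 and 5, quantile normalization, a replicate block, a fit of the compared groups only, and leaving out each library in turn. A covariate for mitochondrial transcripts and a fit without the 8 naive mutant libraries were added after seeing the data. The promoter window of 1 gene is not reported here. Promoter windows, coordinates and gene names came from RefSeq TAIR10.1, in which 94 of 94 listed genes matched by identifier. Python 3.11.15, pandas 2.3.3, Biopython 1.88 and matplotlib 3.10.9 were used.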

Additional observations from a re-analysis of the deposited data

Results flagged for a closer look

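Shade responses that differed between genotypes or light histories were singled out by the limma test of the difference itself. In naive seedlings the shade response of pif7-1 minus that of WT was 3.19 on the log2 scale for CYP79B2, 2.48 for CYP79B3 and 1.61 for GGP1, and these genes fell in WT while none of them was called in pif7-1. The response in the libraries labelled naive ref6-1 minus that of WT was 1.40 for CYP79B3, which fell in both. Naive mutant libraries stand apart from WT in the order of deposit, and genotype cannot be told apart from that in these differences. In ref6-1 the primed response minus the response labelled naive was 0.95 for CYP79B3, which fell only in the second at the threshold. The last comparison sets libraries with ATXR7 at 0.02 TPM or less against libraries with 7.20 TPM or more, and the part of that difference was not tested.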

How the results depend on the processing

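The number of the 10 genes called changed with single libraries, 2 of which make up each group. With one library left out it ran from 0 to 5 for primed pif7-1 shade (0 with all libraries), 0 to 1 for labelled naive ref6-1 shade (1), 0 to 3 for the ref6-1 primed minus naive response (1), 0 to 1 for the naive response of ref6-1 minus WT (1), 0 to 3 for ref6-1 minus pif7-1 in primed white light (1), 2 to 8 in primed shade (7), and 0 to 1 for their primed responses (0). A fit of the compared groups alone gave 5 for naive WT shade (3), 0 for labelled naive ref6-1 shade, 2 for the ref6-1 primed minus naive response, 5 for the naive response of pif7-1 minus WT (3), and 0 for the naive response of ref6-1 minus WT and for ref6-1 minus pif7-1 in primed white light and shade. The mitochondrial covariate gave 0 for labelled naive ref6-1 shade and for the ref6-1 primed minus naive response. For the latter the 5 TPM filter gave 3 and quantile normalization 2. For ref6-1 minus pif7-1 in primed white light, no filter, the pseudocount of 5 and quantile normalization each gave 0, and the pseudocount of 0.1 gave 2. The cause of these changes was not tested. No called gene changed direction under these alternatives.

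The described medians of the 10 genes (log2) moved with pseudocount and filter. Primed minus naive WT in white light (1.43) was 2.36 at 5 TPM, 3.89 at pseudocount 0.1 and 0.51 at 5, and 1.03 to 1.83 with one library left out. Primed WT shade (-1.42) was -2.51, -3.98 and -0.57 in that order, and -1.87 to -1.02. Primed minus naive WT in shade (0.87) was 1.40 and 0.41 at the pseudocounts and 1.76 with the mitochondrial covariate, with a range of 0.62 to 1.43. The WT response difference (-1.45) was -2.73 and -0.44 at the pseudocounts and -0.90 with that covariate, and -1.85 to -1.05. Primed white ref6-1 minus WT (-1.99) was -3.23 at 5 TPM, -4.24 and -1.08 at the pseudocounts and, with quantile normalization, -1.85, and -2.47 to -1.53. Primed shade pif7-1 minus WT (1.53) was 3.84 and 0.59 at the pseudocounts, and 0.70 to 2.36, and ref6-1 minus WT (-0.72) was -0.36 at pseudocount 5 and -0.85 to -0.38.

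Samples share replicate numbers across groups, but the labels give no pairing: deviations of same-numbered libraries correlated between -0.117 and 0.132 over 66 pairs of groups. With the replicate number as a block, 3 genes were called for the ref6-1 primed minus naive response and 2 for ref6-1 minus pif7-1 in primed white light, and no other count moved by over 1.5 times. Quantile normalization moved the median of all genes in naive WT shade from -0.10 to 0.004.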
